A study of Mus musculus with 12 samples.

Results

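Splicing factor and hnRNP genes were examined in thymic leukemias of TEL-JAK2 mice and in wild-type mouse thymocytes. Members were the genes whose single annotated symbol starts with Srsf, U2af, Sf3a, Sf3b, Snrp, Prpf or Hnrnp. The array annotation held 52 such genes among 8251 genes with an unambiguous probe set, and 71 probe sets named them. Each gene was read from the probe set with the highest mean log2 intensity over all 12 arrays. The 52 comprise 9 Srsf, 3 U2af, 3 Sf3a, 5 Sf3b, 8 Snrp, 8 Prpf and 16 Hnrnp genes.

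The leukemia group held 8 arrays of leukemic cells taken from thymi of mice with end-stage disease that carry TEL-JAK2, a fusion of the transcription factor TEL with the tyrosine kinase JAK2. The control group held 4 arrays of thymocytes from wild-type mice aged 2 months. All mice were on the C57Bl/6 background, and both kinds of sample were mechanically dissociated thymus suspensions hybridised to Affymetrix GeneChip arrays. The promoter that drives the fusion and the age of the leukemic mice were not found in the sources used here. The labels do not tie each array to its own animal, so the p-values speak only for the spread among these arrays, which may be partly technical.

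Pre-mRNA splicing removes introns in the spliceosome, which is built from small nuclear ribonucleoproteins and many associated proteins. SR proteins, encoded by the Srsf genes, bind exon sequences and mostly favour use of nearby splice sites, whereas many hnRNP proteins coat nascent transcripts and often oppose it. In T cells these proteins are known to steer the alternative exons of Ptprc, which encodes CD45, and dividing lymphocytes in general make more splicing factors than resting ones.

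Of the 52 genes, 28 were lower in leukemia and 0 were higher, by limma with Benjamini-Hochberg adjustment over all 8251 genes and a threshold of 0.05. Among all genes the same test called 11.9% lower and 5.41% higher, 17.3% in either direction. The median change of the 52 genes was -0.34 on the log2 scale (leukemia minus thymocyte), beside 0.00 for all genes. The change was negative for 42 of the 52 and positive for 10. In 16 of the 52 every leukemia array lay below every thymocyte array, against 8.11% of all genes, and in 0 of the 52 did every leukemia array lie above, against 4.21%. Falls among the 28 called genes ran from -0.21 to -1.02 on the log2 scale, which is 1.16-fold to 2.03-fold. They were unevenly divided: all 9 Srsf and all 3 U2af genes fell, with 11 of 16 Hnrnp, 2 of 3 Sf3a, 2 of 8 Prpf, 1 of 8 Snrp and 0 of 5 Sf3b genes. The differences between families were not tested.

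**Figure D1:**
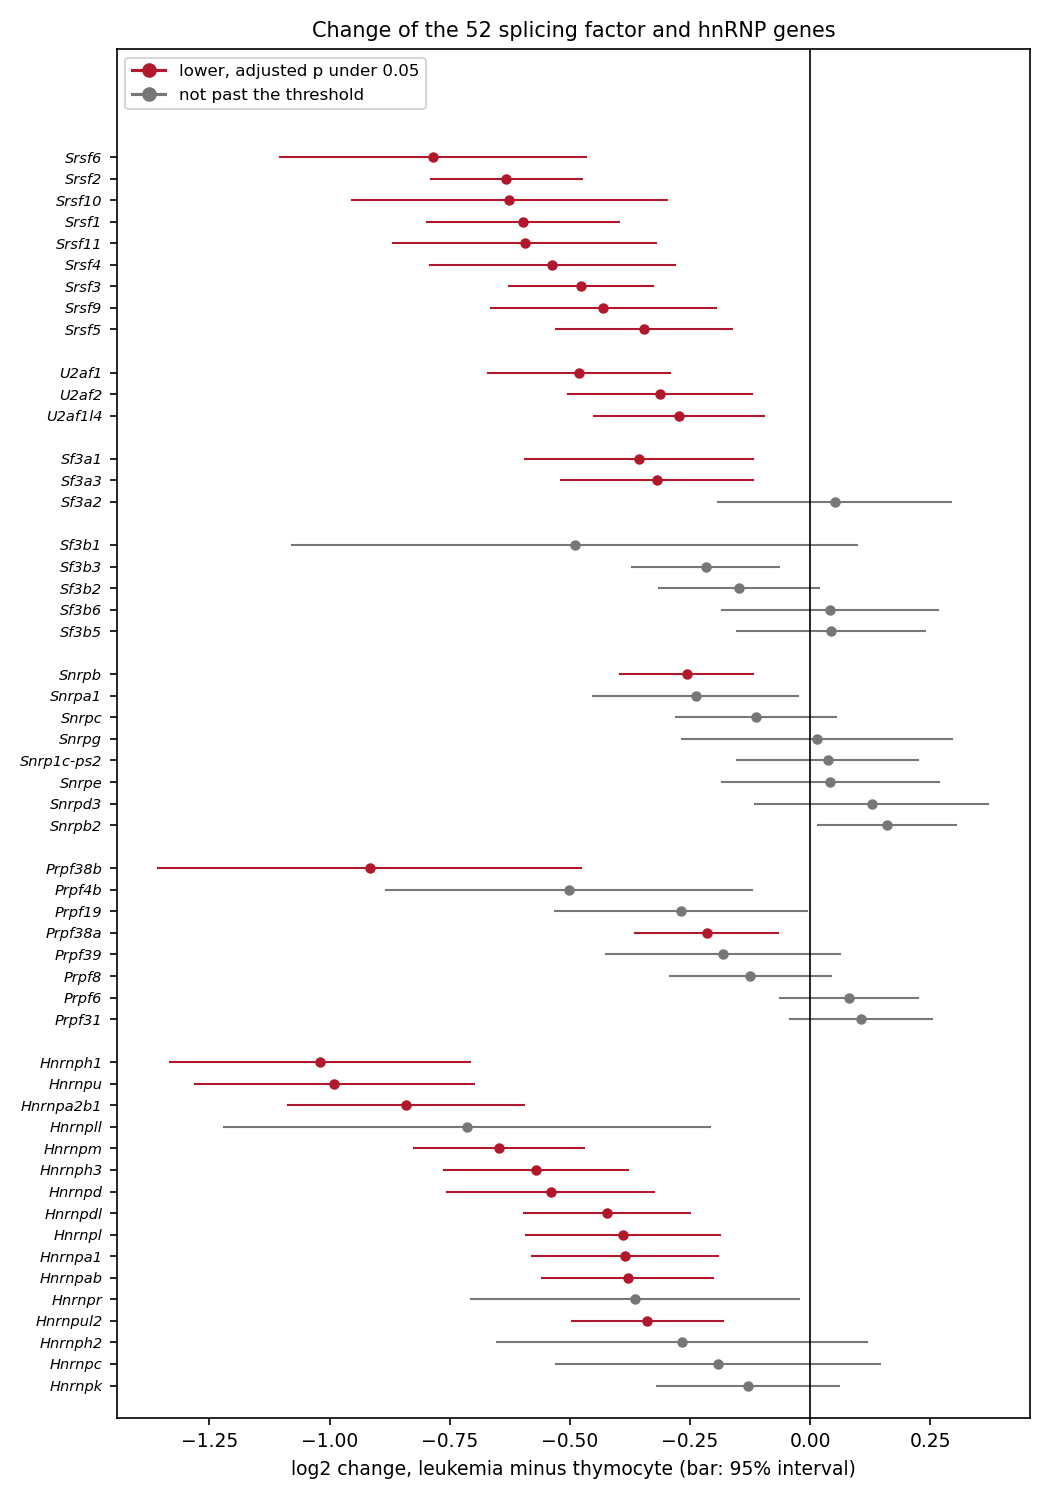
Change of each of the 52 genes in leukemia against thymocytes, as the difference of mean log2 intensity with its 95% confidence interval on the horizontal axis, ordered by symbol family. The 9 Srsf genes all lie left of 0, between -0.78 and -0.34, while the 8 Snrp genes lie around 0, between -0.26 and 0.16.

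Most members were bright. Of the 52, 45 lay above the median brightness of all genes, and 27 of these 45 (60.0%) were called lower. Among all genes above that median, 17.0% were called lower and 7.97% higher. A bulk suspension cannot tell fewer cells of a type from less RNA per cell, and this holds for every value given here. Of 7 T cell markers, Cd3d, Cd3e, Cd3g, Cd8a and Thy1 did not pass the test and had means of at least 9.59 on the log2 scale in both groups. Cd4 fell from a mean of 10.96 to 9.07 (change -1.89, limma adjusted p 0.000881), and Cd2 rose from 9.36 to 10.73 (change 1.38, limma adjusted p 2.4e-06).

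Promoter sequence is shown for 5 genes because it places genes that fell in 2 families beside one that did not pass the test. These are the 250 bases before the transcription start from RefSeq on the mouse assembly GRCm38.p6, 5′ to 3′ on the gene's strand, with matches to the 4 motifs searched in capitals. Srsf2 (chr11:116853095-116853344, minus strand) and Srsf3 (chr17:29032410-29032659, plus strand) encode SR proteins, and Hnrnpu (chr1:178337816-178338065, minus strand) and Hnrnpm (chr17:33685459-33685708, minus strand) encode hnRNP proteins. Snrpe (chr1:133610281-133610530, minus strand) encodes a core Sm protein and did not pass the test.
Srsf2: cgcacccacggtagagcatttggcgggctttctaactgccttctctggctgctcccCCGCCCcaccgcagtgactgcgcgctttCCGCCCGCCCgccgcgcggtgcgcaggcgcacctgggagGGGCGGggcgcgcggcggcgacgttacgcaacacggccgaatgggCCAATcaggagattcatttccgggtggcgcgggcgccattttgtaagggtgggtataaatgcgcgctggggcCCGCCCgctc
Srsf3: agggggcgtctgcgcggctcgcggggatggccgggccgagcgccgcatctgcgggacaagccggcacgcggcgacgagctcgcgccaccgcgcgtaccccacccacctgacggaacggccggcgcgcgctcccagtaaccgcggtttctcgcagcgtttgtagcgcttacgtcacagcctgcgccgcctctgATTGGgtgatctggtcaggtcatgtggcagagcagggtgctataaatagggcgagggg
Hnrnpu: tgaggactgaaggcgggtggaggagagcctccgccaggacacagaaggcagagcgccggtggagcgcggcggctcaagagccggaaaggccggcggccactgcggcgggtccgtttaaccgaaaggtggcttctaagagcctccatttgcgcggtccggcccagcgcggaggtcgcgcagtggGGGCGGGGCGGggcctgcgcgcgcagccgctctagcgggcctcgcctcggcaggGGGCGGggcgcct
Hnrnpm: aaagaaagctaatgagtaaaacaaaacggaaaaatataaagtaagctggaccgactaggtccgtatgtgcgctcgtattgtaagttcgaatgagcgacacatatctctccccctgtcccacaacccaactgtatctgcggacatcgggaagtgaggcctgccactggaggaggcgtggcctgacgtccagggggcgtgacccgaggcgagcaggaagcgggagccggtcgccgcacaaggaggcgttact
Snrpe: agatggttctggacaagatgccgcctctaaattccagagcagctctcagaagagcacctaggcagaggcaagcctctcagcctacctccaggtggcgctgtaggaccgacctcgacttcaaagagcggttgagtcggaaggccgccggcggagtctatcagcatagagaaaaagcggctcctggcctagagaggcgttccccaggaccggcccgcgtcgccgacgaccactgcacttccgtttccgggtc
The capitals mark 5 GC boxes and 1 CCAAT box in Srsf2, 1 CCAAT box in Srsf3 and 3 GC boxes in Hnrnpu, with overlapping matches counted singly. Neither Hnrnpm nor Snrpe held a match in this window.

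The RefSeq table held a promoter for 46 of the 52 genes, which leaves out Snrpb, Sf3b5, Snrp1c-ps2, Hnrnpul2, U2af2 and Hnrnpll. The motifs were the E-box CACGTG, the ETS site CCGGAAGT, the CCAAT box CCAAT and the GC box GGGCGG, each sought on both strands. A GC box stood in 20 of the 25 promoters of genes that fell (80.0%) and in 11 of the 21 of genes that did not pass the test (52.4%), against 42.7% of 17492 protein-coding genes. CCAAT stood in 11 of 25 and 11 of 21, beside 36.3% of all. The ETS site stood in 4 of 25 and 2 of 21, beside 3.84%, and the E-box in 1 of 25 and 1 of 21, beside 6.64%. The 17492 genes were not matched to the members for brightness or base composition, and no difference in motif share was tested. These matches describe letters in a window, and no binding was measured.

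Among the Srsf genes, all 9 fell, with a median change of -0.59 on the log2 scale. Srsf2 encodes an SR protein that binds exonic enhancers. Its log2 intensity was 11.23, 11.17, 11.19 and 11.14 in the 4 thymocyte arrays and ran from 10.36 to 10.71 in the 8 leukemia arrays (median 10.53). All 8 leukemias were below all 4 thymocyte arrays, by more than the spread within either group. The change was -0.63 (SE 0.07, 95% interval -0.79 to -0.47), a 1.55-fold fall with an adjusted p of 6.86e-05 in limma. The other probe set of Srsf2 gave -0.67.

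Srsf3 encodes the smallest SR protein, which acts in splicing and in mRNA export. Its thymocyte arrays read 8.22, 8.20, 8.27 and 8.34, and its leukemias ran from 7.66 to 7.93 (median 7.75). The groups did not overlap, and the 8 leukemias were as tightly placed as for Srsf2. The change was -0.48 (SE 0.07, 95% interval -0.63 to -0.33), a 1.39-fold fall with a limma adjusted p of 0.000409. Srsf1, the founding SR protein and a general splicing activator, read 7.23, 7.07, 7.13 and 7.05 in thymocytes and 6.28 to 6.77 in leukemias (median 6.49). Here too every leukemia was below every thymocyte array. The change was -0.60 (SE 0.09, 95% interval -0.80 to -0.40), a 1.51-fold fall with a limma adjusted p of 0.000604. A second probe set of Srsf1 gave -0.99, whereas a pair of its probe sets below the control level, the 95th percentile of the non-mouse control probe sets on each array, gave -0.31 and 0.18 and were not called.

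The remaining 6 Srsf genes fell as well. Srsf6 had the deepest fall of the family at -0.78 (SE 0.15, limma adjusted p 0.00232). Its thymocyte arrays 1 to 3 read 10.03, 10.001 and 10.03 and array 4 read 9.59, just under the highest leukemia at 9.60. Srsf10, which encodes an SR-like protein known as a splicing repressor during mitosis and heat shock, fell by 0.63 (SE 0.15, adjusted p 0.0113), and Srsf11 by 0.59 (SE 0.13, adjusted p 0.00524). Srsf4 fell by 0.54 (SE 0.12, adjusted p 0.00622). In Srsf10 and Srsf11 no leukemia reached the thymocyte range, and in Srsf6 and Srsf4 7 of 8 leukemias lay below it. Srsf9 fell by 0.43 (SE 0.11, adjusted p 0.0145) and Srsf5 by 0.34 (SE 0.08, adjusted p 0.0123), each with 7 of 8 leukemias below the thymocyte range. Both calls depended on single arrays. The adjusted p of Srsf9 was 0.0667 without thymocyte array 1 and 0.0525 without array 2, and that of Srsf5 was 0.0612 without array 1 and 0.0501 without array 3.

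**Figure D2:**
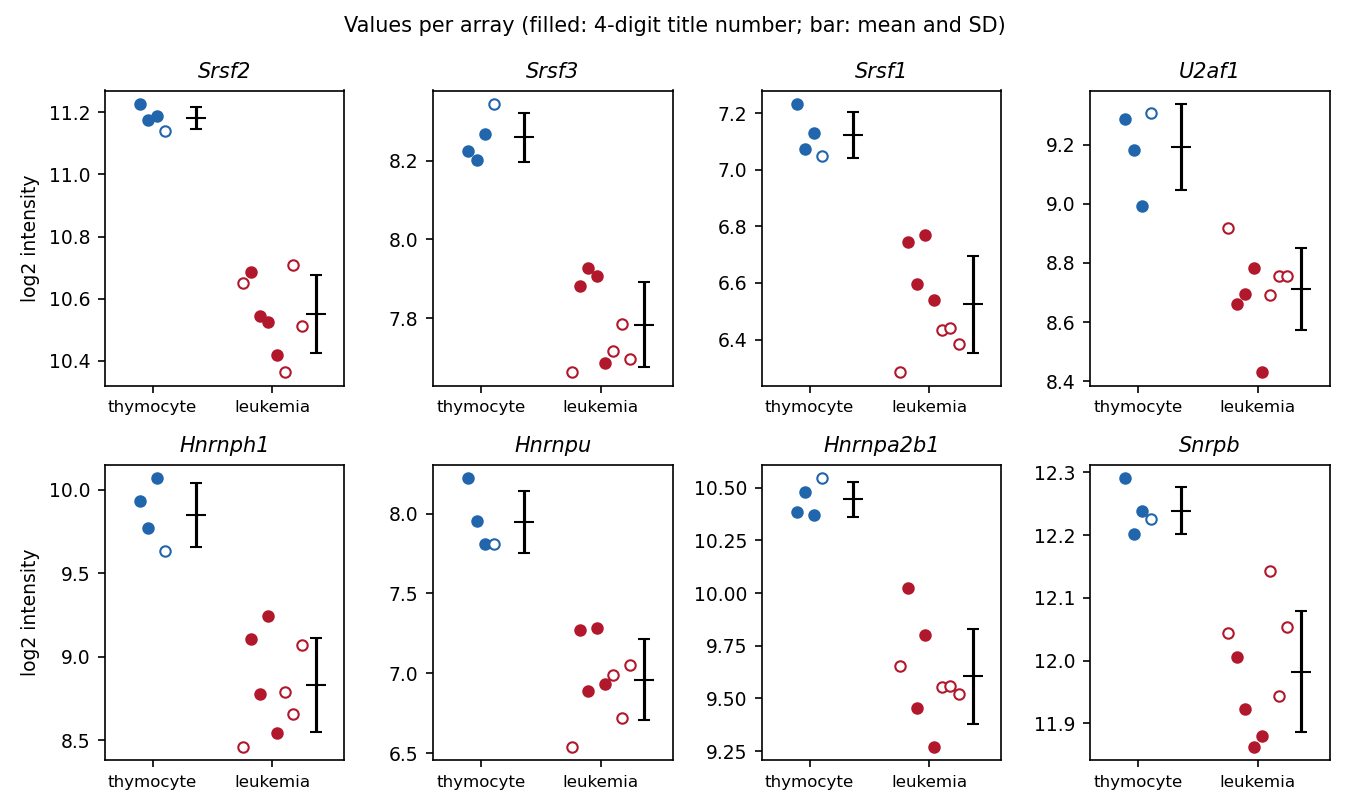
Log2 intensity of 8 genes on each array, with leukemia and thymocyte arrays side by side, filled points for arrays whose title holds a 4-digit number, and bars for the group mean ± SD. The genes come from the 16 of 52 members in which every leukemia lay below every thymocyte array, as in 8.11% of all genes. Among the 8 panels the gap is smallest for Snrpb, where the highest leukemia is 12.14 and the lowest thymocyte array 12.20.

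The U2af genes encode the U2 auxiliary factor, which marks the 3′ end of introns before the U2 particle binds, and all 3 fell. U2af1, the small subunit that reads the AG at the intron's end, read 9.29, 9.18, 8.99 and 9.31 in thymocytes and 8.43 to 8.92 in leukemias (median 8.73). The groups did not overlap. The change was -0.48 (SE 0.09, 95% interval -0.67 to -0.29), a 1.40-fold fall with a limma adjusted p of 0.00194.

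U2af2, the large subunit that binds the polypyrimidine tract, read 11.09, 10.996, 10.95 and 11.01 in thymocytes and 10.43 to 10.96 in leukemias (median 10.66). Leukemia 6 reached the thymocyte range and the other 7 leukemias lay below it. The change was -0.31 (SE 0.09), with a limma adjusted p of 0.0274. U2af1l4, a paralog of the small subunit, read 7.99, 7.90, 7.92 and 7.86 in thymocytes and 7.45 to 7.87 in leukemias (median 7.69). Leukemia 4 was level with the lowest thymocyte array and the others lay below. The change was -0.27 (SE 0.08), with a limma adjusted p of 0.0361. Neither call held when any 1 thymocyte array was left out: without arrays 1, 2, 3 and 4 in turn the adjusted p was 0.0973, 0.0702, 0.0529 and 0.0582 for U2af2 and 0.125, 0.0849, 0.0859 and 0.0544 for U2af1l4. That of U2af1l4 was also 0.0608, 0.0513 and 0.0513 without leukemia 5, 6 and 7, and 0.0737 after quantile normalization of all arrays.

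SF3A and SF3B are multi-subunit parts of the U2 particle that hold it on the branch point, the adenosine that opens the splicing reaction. Of the 3 Sf3a genes, 2 fell, beside 11.9% of all genes. Sf3a3 read 8.43, 8.53, 8.22 and 8.43 in thymocytes and 7.87 to 8.28 in leukemias (median 8.11). Leukemias 2 and 4 lay inside the thymocyte range and the other 6 below it. The change was -0.32 (SE 0.09), with a limma adjusted p of 0.0302. Sf3a1 read 7.77, 7.53, 7.41 and 7.83 in thymocytes and 6.95 to 7.54 in leukemias (median 7.23), with leukemias 2 and 6 inside the thymocyte range. The change was -0.36 (SE 0.11), with a limma adjusted p of 0.0399. Sf3a2 did not pass the test, at 0.05 (SE 0.11, 95% interval -0.19 to 0.29). Its other probe set, about as bright, gave -0.20 (SE 0.09, limma adjusted p 0.144 over all probe sets). Both probe sets carry a suffix for possible cross-hybridization.

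Both Sf3a calls rested on few arrays. For Sf3a3 the adjusted p was 0.0900, 0.119 and 0.0699 without thymocyte arrays 1, 2 and 4. For Sf3a1 it was 0.144, 0.0654 and 0.128 without those same arrays, and 0.0527 to 0.0653 without leukemia 1, 3, 4, 5, 7 or 8. With all arrays kept, that of Sf3a1 was 0.101 after quantile normalization and 0.0564 with arrays centred on their median. Within the arrays whose title holds a 4-digit number it was 0.200 for Sf3a3 and 0.110 for Sf3a1.

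None of the 5 Sf3b genes passed the test in either direction, and 95% intervals ran from -1.08 to 0.27. Sf3b3, a scaffold of the SF3B complex, came nearest at -0.22 (SE 0.07), with a limma adjusted p of 0.0511. Its adjusted p was 0.0250 without leukemia 1 and 0.0374 without leukemia 7. It was 0.0324 when the title of the array (with or without a 4-digit number) was added to the model and 0.0402 within the arrays with 4-digit titles. Sf3b6 and Sf3b5, a pair of small subunits, each stood at 0.04. Sf3b2 stood at -0.15 (adjusted p 0.236).

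Sf3b1, which clamps the branch point and is recurrently mutated in human blood cancers, is described because its arrays split by title; it was chosen after its values were seen. Its thymocyte arrays 1 to 3 read 8.87, 8.77 and 8.93, and array 4 read 7.57. Leukemias 1 to 8 read 7.60, 8.36, 8.45, 8.50, 8.32, 7.43, 7.61 and 8.07. The low values were thymocyte array 4 and leukemias 1, 6, 7 and 8, which are the 5 arrays whose titles hold no 4-digit number. The change was -0.49 (SE 0.27, 95% interval -1.08 to 0.10), with a limma adjusted p of 0.267. Among the 4-digit arrays alone it was -0.45 with an adjusted p of 0.00454, among the other 5 arrays 0.11, and without thymocyte array 4 it was -0.81 with an adjusted p of 0.0310.

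A second, dimmer probe set of Sf3b1 split by title less widely. It read 7.84, 7.72, 7.83 and 7.67 in thymocytes and 7.15 to 7.70 in leukemias. Only leukemia 4 reached the thymocyte range. The 4-digit leukemias read 7.54, 7.36, 7.70 and 7.58 and the other leukemias 7.24, 7.34, 7.15 and 7.44, and thymocyte array 4 was again the lowest thymocyte array. Its change was -0.34 (SE 0.10), with a limma adjusted p of 0.0288 over all probe sets. In the 4-digit arrays it was -0.25 and in the others -0.37.

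**Figure D3:**
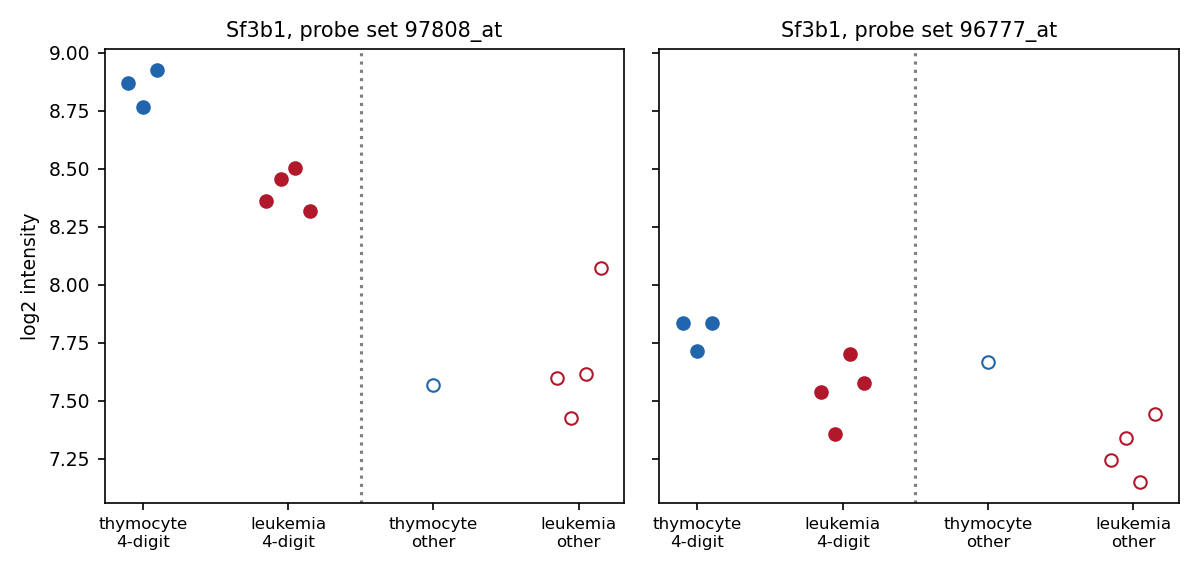
Log2 intensity of the 2 Sf3b1 probe sets on each of the 12 arrays, with filled points for the 4-digit titles. On the brighter probe set thymocyte array 4 reads 7.57 and lies among the low leukemias, whereas on the dimmer one it reads 7.67 and lies near the other thymocyte arrays.

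Titles with a 4-digit number belong to leukemias 2 to 5 and thymocyte arrays 1 to 3, and the labels do not say what the number is. With the title group added to the model, 12 of the 52 genes (23.1%) passed the test for the title term itself, beside 16.4% of all genes. Of these 12, 10 were higher in the 4-digit arrays, beside 755 of the 1352 that passed among all genes. The 10 were led by Sf3b1 at 0.88, Prpf38b at 0.55, Prpf4b at 0.49, Hnrnpr at 0.46 and Srsf10 at 0.44. The leukemia change kept its sign within both title groups for all 28 genes that fell, although the second group holds only 1 thymocyte array. With the title group in the model, 27 of the 28 passed the test again and Sf3b3 and Prpf4b passed too, beside 13.2% of all genes called lower and 6.44% called higher. Within the 4-digit arrays alone 22 of the 28 passed, beside 11.1% called lower and 6.59% called higher.

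The Snrp genes encode proteins of the small nuclear ribonucleoproteins, among them the Sm proteins that form a ring on the spliceosomal RNAs. Of the 8, 1 was called lower and 0 higher, and their median change was 0.03. That 12.5% called lower is near the 11.9% of all genes. The called gene was Snrpb, which encodes SmB and SmB′ and was the brightest member. It read 12.29, 12.20, 12.24 and 12.23 in thymocytes and 11.86 to 12.14 in leukemias (median 11.98). The groups did not overlap, but the gap between them was small. The change was -0.26 (SE 0.06, 95% interval -0.40 to -0.12), a 1.20-fold fall with a limma adjusted p of 0.0137, which was 0.0555 without thymocyte array 1.

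The other 7 Snrp genes did not pass the test, and their 95% intervals lay between -0.45 and 0.37. Snrpg and Snrpe, which encode other Sm ring proteins, stood at 0.02 (95% interval -0.27 to 0.30) and 0.04 (-0.18 to 0.27). Snrpd3, also of the ring, stood at 0.13. Of the proteins particular to the U2 particle, Snrpa1 stood at -0.24 (adjusted p 0.127, and 0.0326 without leukemia 1) and Snrpb2 at 0.16 (adjusted p 0.125). Snrpc, of the U1 particle, stood at -0.11. The symbol Snrp1c-ps2 names a pseudogene, and its probe set, marked for possible cross-hybridization, gave 0.04. The probe sets of Snrpb, Snrpe and Snrpb2 carry such a mark too. In all, 4 of the 8 Snrp genes were read this way, beside 9 of the 52 members, which limits the reading of this family. The other probe set of Snrpb2, dim in both groups, gave -0.06.

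Prpf genes encode pre-mRNA processing factors of the tri-snRNP and of the complexes that activate the spliceosome. Of the 8, 2 were called lower and 0 higher, with a median change of -0.20. Prpf38b read 8.08, 7.65, 7.94 and 7.31 in thymocytes and 6.30 to 7.41 in leukemias (median 6.88). Leukemia 4 lay inside the thymocyte range and the other 7 below it. The change was -0.92 (SE 0.20, 95% interval -1.36 to -0.48), a 1.89-fold fall with a limma adjusted p of 0.0066.

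Prpf38a, a component of the precatalytic spliceosome, read 7.38, 7.50, 7.28 and 7.45 in thymocytes and 7.01 to 7.32 in leukemias (median 7.21). Its change was -0.21 (SE 0.07), with a limma adjusted p of 0.0475, the weakest call among the 28. Leaving out any 1 of 10 arrays ended it, with adjusted p from 0.0572 to 0.0737 without leukemia 1, 2, 3, 5, 6, 7 or 8 and of 0.103, 0.171 and 0.113 without thymocyte arrays 1, 2 and 4. With the title group in the model it was 0.0505. After quantile normalization it was 0.129, with arrays centred on their median 0.0650, and with a trended, robust variance model 0.0565.

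The other 6 Prpf genes did not pass the test, with 95% intervals from -0.88 to 0.25. They include Prpf8, the protein at the catalytic core, at -0.12, and Prpf6 and Prpf31, which join the U4/U6 and U5 particles, at 0.08 and 0.11. Prpf19, a ubiquitin ligase of the activated spliceosome, stood at -0.27. Prpf4b, a kinase that acts on the tri-snRNP, stood at -0.50 (adjusted p 0.0705, 0.0291 without leukemia 4, 0.0467 without thymocyte array 4 and 0.0409 with the title group in the model), and its leukemia mean was near the level of the control probe sets. Prpf39 had the lowest mean of all 52 genes and was below that level in both groups, so its -0.18 carries little information.

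Among the Hnrnp genes, all 16 changes were negative, 11 were called lower (68.8%, beside 11.9% of all genes), and the median was -0.41. The deepest fall of all 52 genes was that of Hnrnph1, which binds runs of G and can activate or silence exons. It read 9.93, 9.77, 10.07 and 9.63 in thymocytes and 8.46 to 9.25 in leukemias (median 8.78). The groups did not overlap. The change was -1.02 (SE 0.14, 95% interval -1.33 to -0.71), a 2.03-fold fall with a limma adjusted p of 0.000345. It was the only 1 of the 52 to fall by 2-fold or more, beside 1.38% of all genes.

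By the test statistic, the 3 leading Hnrnp genes were Hnrnpm, Hnrnpa2b1 and Hnrnpu. Hnrnpm, an hnRNP bound to GU-rich sequence, read 10.09, 10.01, 9.95 and 10.07 in thymocytes and 9.07 to 9.55 in leukemias (median 9.42). Both groups were tight and they did not overlap. The change was -0.65 (SE 0.08, 95% interval -0.83 to -0.47), a 1.57-fold fall with a limma adjusted p of 0.000151. Hnrnpa2b1, a core hnRNP that also carries RNAs in the cytoplasm, read 10.39, 10.48, 10.37 and 10.54 in thymocytes and 9.27 to 10.02 in leukemias (median 9.55). No leukemia reached the thymocyte range. The change was -0.84 (SE 0.11), a 1.79-fold fall with a limma adjusted p of 0.000239, while its second probe set gave -0.39 with an adjusted p of 0.174.

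Hnrnpu, a large hnRNP that also binds the nuclear scaffold, read 8.22, 7.95, 7.81 and 7.81 in thymocytes and 6.54 to 7.28 in leukemias (median 6.96). All leukemias lay below all thymocyte arrays. The change was -0.99 (SE 0.13), a 1.99-fold fall with a limma adjusted p of 0.000246. Its other probe set, dim in both groups, gave -0.03.

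A further 7 Hnrnp genes fell by less. Hnrnph3, a relative of Hnrnph1, fell by 0.57 (SE 0.09, adjusted p 0.000653). Hnrnpd, known as AUF1 and a regulator of mRNA decay through AU-rich elements, fell by 0.54 (SE 0.10, adjusted p 0.00207), and its paralog Hnrnpdl by 0.42 (SE 0.08, adjusted p 0.00238). Hnrnpab, of the same subfamily, fell by 0.38 (SE 0.08, adjusted p 0.00561). In these 4 genes and in Hnrnpul2, which fell by 0.34 (SE 0.07, adjusted p 0.00532), every leukemia was below every thymocyte array. Hnrnpa1, an antagonist of SR proteins at splice sites, fell by 0.39 (SE 0.09, adjusted p 0.00877), and 7 of 8 leukemias lay below the thymocyte range. Hnrnpl, a silencer of the variable exons of Ptprc, fell by 0.39 (SE 0.09, adjusted p 0.011), with 6 of 8 leukemias below that range. Its adjusted p was 0.0539 without thymocyte array 1 and 0.0549 without array 2.

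Of the 5 Hnrnp genes that did not pass the test, Hnrnpll had the largest change, -0.71 (SE 0.23, adjusted p 0.0522). It is a paralog of Hnrnpl induced in activated T cells. It read 8.93, 8.90, 8.61 and 8.63 in thymocytes, and the leukemias were spread from 7.32 to 8.71, with leukemias 7 and 1 lowest. Its adjusted p was 0.0365 without leukemia 2 and 0.0187 without leukemia 4. Hnrnpr stood at -0.36 (adjusted p 0.146, and 0.0418 without leukemia 4 and 0.0487 without thymocyte array 4). Hnrnpk, a binder of C-rich RNA, stood at -0.13 (adjusted p 0.377). Hnrnpc was near the level of the control probe sets in both groups and Hnrnph2 in leukemia, so their -0.19 and -0.27 rest on weak signal.

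Probe sets of the same gene gave a second reading for some members. The 28 genes that fell had 14 further probe sets in 11 genes. Of these, 7 were brighter than the control level in at least 1 group, and all 7 changes were negative with 6 called lower. The other 7 were dim in both groups, and 1 of them was called lower. Over all 12422 probe sets 9.88% were called lower, which is not a matched comparator. The 28 genes were picked as lower on these same arrays, so their further probe sets are no independent support. Among members that did not pass, further probe sets gave -0.34 for Sf3b1, -0.20 for Sf3a2 and -0.09 for Prpf19. Those of Snrpb2 and Prpf39, both dim, gave -0.06 and -0.04. Of these only that of Sf3b1 was called lower. Of the 28 genes, Srsf2, Srsf3, Snrpb and Hnrnpdl were read from probe sets with a suffix for possible cross-hybridization.

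Averaged over all 52 genes, each leukemia lay between 0.20 and 0.43 log2 units below the thymocyte mean, whereas thymocyte arrays lay between -0.07 and 0.08 around it. The Srsf average was -0.75 to -0.35 in leukemias and -0.12 to 0.10 in thymocytes. The Hnrnp average was -0.66 to -0.29, beside -0.11 to 0.10. The Snrp average did not separate the groups, at -0.16 to 0.09 beside -0.06 to 0.12. Nor did the Prpf average, at -0.40 to -0.08 beside -0.16 to 0.14. Every leukemia was thus below every thymocyte array in the SR and hnRNP averages. From 28 to 39 of the 52 genes lay below all thymocyte arrays in any 1 leukemia, fewest in leukemia 4 and most in leukemias 6 and 7, beside 26.5% to 40.1% of all genes.

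**Figure D4:**
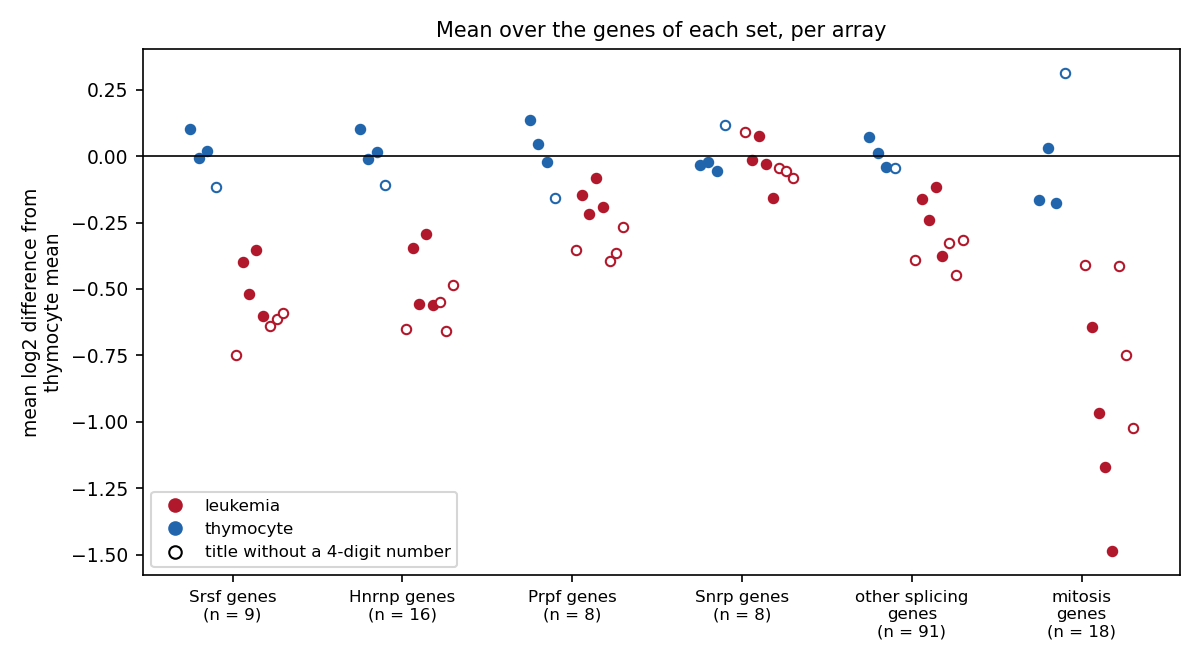
Mean log2 difference from the thymocyte mean on each array for the Srsf, Hnrnp, Prpf and Snrp genes, for the other splicing genes and for mitosis genes, with 1 point per array. The 8 leukemias lie below all thymocyte arrays for Srsf (-0.75 to -0.35) and Hnrnp (-0.66 to -0.29). They also do so for the other splicing genes (-0.45 to -0.12) and the mitosis genes (-1.49 to -0.41). Leukemias overlap the thymocyte arrays for Snrp (-0.16 to 0.09) and Prpf (-0.40 to -0.08).

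Taken over all pairs, members showed no single common movement from leukemia to leukemia. Over the 8 leukemias the correlation between pairs of members had a median of 0.125 and ran from -0.95 to 0.96. The arrays share a normalization, and these correlations are a description.

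A list of 135 other splicing genes, of which 91 were analysed, was set beside the members. Of the 91, 37 (40.7%) were called lower and 1 higher, beside 11.9% and 5.41% of all genes. The median change of the 91 was -0.28, beside 0.00 for all genes. Of the 91 changes 82 were negative, beside 49.1% of all genes. The falls with the largest statistics were those of Ddx39b, an RNA helicase of early spliceosome assembly and mRNA export, at -0.66 (SE 0.07), Pnn, a protein of the exon junction, at -1.01 (SE 0.14), Sfpq, a paraspeckle protein read from a possibly cross-hybridizing probe set, at -0.94 (SE 0.14), and Tra2b, an SR-like activator, at -0.62 (SE 0.09). The 1 higher gene was Mbnl1, a regulator of developmental alternative splicing, at 0.38 (SE 0.09, limma adjusted p 0.0146), with every leukemia above every thymocyte array.

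Kinases of SR proteins were looked at after their values had been seen. The 4 CLK kinases, which phosphorylate SR proteins in the nucleus, were all lower: Clk1 by 0.84, Clk2 by 0.48, Clk3 by 1.10 and Clk4 by 0.63 on the log2 scale. Their limma adjusted p values were 0.000713, 0.00246, 0.00315 and 0.00224. For each of the 4, all leukemias lay below all thymocyte arrays. Such a separation held for 26 of the 91 other splicing genes, the 4 included, and for 8.11% of all genes. Of the same 91 genes 37 were called lower, beside 11.9% of all genes. The SRPK kinases, which act on SR proteins in the cytoplasm, did not pass the test, with Srpk1 at -0.04 (adjusted p 0.860) and Srpk2 at -0.17 (adjusted p 0.285).

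**Figure D5:**
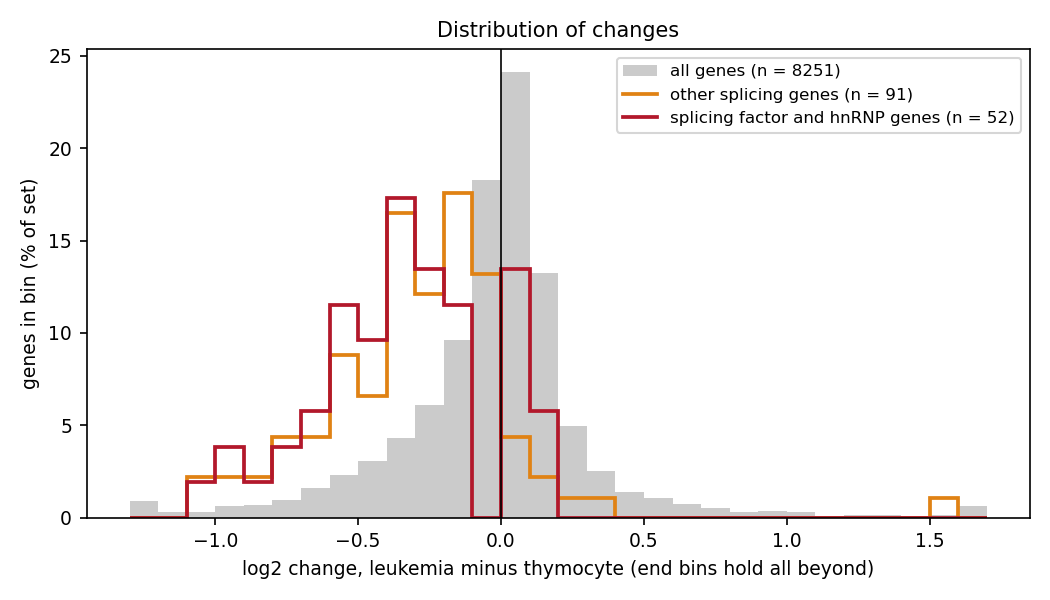
Percent of genes in each 0.1-wide bin of log2 change (leukemia minus thymocyte) for the members, the other splicing genes and all 8251 genes. The members' middle 50% lies between -0.54 and -0.14, to the left of that of all genes, between -0.15 and 0.11.

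Lists of marker genes were set beside the members, and their part in the result was not tested. Mitosis genes were also lower: 15 of 18 fell, beside 11.9% of all genes. Their average lay from -1.49 to -0.41 in leukemias and from -0.18 to 0.31 in thymocytes. In leukemias 1 to 8 the mitosis average was -0.41, -0.64, -0.97, -1.17, -1.49, -0.41, -0.75 and -1.02. The member average in the same order was -0.41, -0.24, -0.32, -0.20, -0.39, -0.41, -0.43 and -0.36.

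Of 15 macrophage markers 0 passed the test, but their average was raised to 0.77, 1.16 and 1.31 in leukemias 3, 5 and 7, against -0.17 to 0.18 in thymocytes. Of the 15, 11 were above the control level in both groups, among them Csf1r, Cd68, C1qa, C1qb, C1qc, Lyz2 and Ctss. Adgre1, Mrc1 and Msr1 were below it in both groups, and Aif1 in thymocytes. Without those 3 leukemias 20 of the 52 members were called lower, beside 8.53% of all genes. Of 7 granulocyte markers 4 fell (S100a8, S100a9, Ngp and Camp), beside 11.9% of all genes. The average of the 7 was -0.80 to -0.36 in leukemias and -0.15 to 0.18 in thymocytes. Of 6 thymic epithelium markers Epcam rose and Krt18 fell, both near the control level, and the average was 0.07 to 0.31 in leukemias and -0.05 to 0.07 in thymocytes. None of the 6 B cell, 5 NK cell, 3 erythroid or 6 stroma markers passed the test. The B cell average was raised in leukemias 3, 5 and 7, at 0.46, 0.79 and 0.91, against -0.03 to 0.02 in thymocytes. The NK cell average, over 5 markers near the control level in both groups, was 0.54 in leukemia 1, against -0.05 to 0.03 in thymocytes. The erythroid average was -1.09 to 0.38 in leukemias and -0.20 to 0.23 in thymocytes, and the stroma average -0.11 to 0.29 and -0.12 to 0.08. The 3′ minus 5′ difference of the Gapdh and Actb control probe sets overlapped between the groups, at -0.20 to 0.06 and 0.39 to 0.54 in leukemias and -0.16 to -0.04 and 0.36 to 0.59 in thymocytes.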

How the data were processed

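RNA from 8 leukemia and 4 thymocyte arrays was measured on Affymetrix GeneChip arrays. The deposited table gives linear intensities per probe set; the submitters' processing notes name RMA as the authors' tool, without a version. Array medians ran from 66.48 to 70.18, so intensities were converted to log2 with no offset and no further normalization. RMA as usually run sets the arrays to a common distribution, so a shift of all genes together cannot be seen. The deposited values still differed in distribution between arrays. Quantile normalization moved the change of Srsf2 from -0.63 to -0.75 and that of U2af1l4 from -0.27 to -0.20. It left 25 of the 52 members called lower, beside 10.8% of all genes. Of 12488 probe sets 66 controls were left out, and 10833 of the other 12422 named 1 gene in the platform annotation. Each of the 8251 genes was read from its brightest probe set. The 95th percentile of 19 non-mouse control probe sets on each array served as the control level, and the number of arrays limits the precision.

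Groups came from the labelled genotype and disease state. They were compared with R 4.3.3 and limma 3.58.1 (two-sided lmFit and eBayes fit with no covariate), with Benjamini-Hochberg adjustment over all genes at 0.05. Every adjusted p is limma's unless another test is named. The scripts were tested on simulated data. Members and lists were chosen with earlier results of these data known. Per-array values are given for up to 3 called genes per symbol family with the largest limma statistics. Changes are given for other called genes, for the brightest and dimmest member, and for the leading gene of a family without a call. Of the other splicing genes, up to 4 with the largest statistics in each direction are named. Other genes named were chosen after their values were seen. All 52 members were in a RefSeq table (GRCm38.p6), used only for names and promoters. Alternatives changed the normalization, the filter, the probe set, the variance model, the threshold and the arrays used.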

Additional observations from a re-analysis of the deposited data

Results flagged for a closer look

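In 8 of the 104 groups examined (52 genes in each of 2 groups), the highest or lowest array stood further from its neighbour, relative to the group's range, than Dixon's 95% critical value. Chance gives such a value in about 1 group in 20. Thymocyte array 4 stood apart for 3 genes. It was low for Sf3b1 (7.57, next 8.77) and Srsf6 (9.59, next 10.001) and high for Snrpe (9.77, next 9.38). Thymocyte array 3 was high for Sf3b2 (8.24, next 8.10) and Snrpb2 (5.86, next 5.72), and thymocyte array 1 was high for Hnrnpul2 (7.99, next 7.82). Leukemia 5 was high for Prpf39 (4.05, next 3.73), whose signal was below the control level. Leukemia 6 was low for Hnrnpl (7.36, next 7.58).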

How the results depend on the processing

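The median change of the members stayed between -0.36 and -0.29 under every alternative run, and no called change turned sign. The 28 lower calls among members became 18 at an adjusted p under 0.01 (6.75% of all genes) and 16 with an exact two-sided rank-sum test (8.12% of all genes), whose p cannot go below 0.00404. They ran from 19 to 30 with 1 array left out (19 without thymocyte array 1, with 7.59% of all genes), and 14 of the 28 were kept in every alternative. The count of higher members became 1 with array weights (Snrpb2, read from a possibly cross-hybridizing probe set). For other splicing genes the 37 lower calls became 20 at an adjusted p under 0.01 (6.75% of all genes). They became 23 in the 4-digit arrays alone (11.1%) and 24 without leukemias 3, 5 and 7 (8.53%). With 1 array left out they ran from 23 to 41. They were 23 without thymocyte array 1 (7.59%), 24 without array 2 (7.94%) and 41 without leukemia 4 (13.8%). The 1 higher call among other splicing genes became 2 with array weights, the rank-sum test or the title group as a block. It also became 2 in the 4-digit arrays alone and with the macrophage average as a covariate. It became 0 at an adjusted p under 0.01 and without leukemias 3, 5 and 7, and ran from 0 to 2 with 1 array left out (2 without leukemia 1, 0 without thymocyte array 4). The cause of these differences was not tested. No paired analysis was possible because the labels give no replicate numbers shared between the groups. With 4 thymocyte arrays the weaker calls cannot be settled, and genes near the control level carry little information.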
